A study of Mus musculus with 10 samples.

Results

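The genes described here encode translation factors and RNA-binding proteins, and H3K27me3 peaks at their transcription start sites (TSSs) were compared between a parental mouse lymphoma line and 4 lines selected from it with mafosfamide. They are the protein-coding genes of the GENCODE annotation of mm9 whose symbol begins with Eif, Eef1, Eef2, Hnrnp or Srsf. This rule gave 96 of 22380 protein-coding genes under 95 symbols, because Eef2k is listed under 2 gene identifiers. There were 58 Eif, 9 Eef, 18 Hnrnp and 11 Srsf entries on 21 chromosomes. The rule takes in 4 Eif2c genes, which is the older name of the Argonaute genes of RNA silencing, and 10 entries for kinases and binding proteins that act on the factors.

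All 5 lines were B-cell lymphoma lines of the C57BL/6J strain carrying the Eμ-Myc transgene, which drives Myc in the B lineage from an immunoglobulin enhancer, and lacking Cdkn2a (Cdkn2a-/-). The parental line had no mafosfamide, an active form of the alkylating agent cyclophosphamide. The resistant lines are named by the dose in nM at which they were taken. R100 was harvested on day 10 at 100 nM, R500 on day 18 at 500 nM, R1000 on day 23 at 1000 nM and R4000 on day 37 at 4000 nM, and all were grown without the drug for the ChIP. The resistant lines are described as sub-clones and come from 1 parental line, so that effects of clone, dose and time cannot be told apart. H3K27me3 ChIP-seq gave 1 peak list per line with positions and no counts or scores, so the sequencing depth is unknown and there is no replicate check of any difference between lines. The parental list held 10778 distinct peaks, and those of the resistant lines, from the lowest dose to the highest, held 25180, 21888, 9595 and 6820. A gene was counted as covered where peaks took up at least 150 bp, which is 3 bins of 50 bp, of the 2 kb on 1 side of its TSS. The intervals given are 95% Wilson intervals, which cover the counting of genes and leave out variation between cultures. Where 5 values follow each other without line names, their order is parental, R100, R500, R1000, R4000.

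Translation starts when eIF2 brings the initiator tRNA to the small ribosomal subunit, eIF3 holds that complex together, and the eIF4 factors bind the mRNA cap and unwind the leader. The eEF1 and eEF2 proteins then carry elongation. The hnRNP and SR (Srsf) proteins bind nascent transcripts and govern splicing and export. Genes of this kind are expressed in nearly every cell, whereas H3K27me3, placed by the polycomb repressive complex 2, is best known from promoters of silent developmental genes. B-cell lymphomas driven by Myc are known for high rates of protein synthesis.

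At the limit of 150 bp, H3K27me3 peaks at these genes lay mostly downstream of the TSS. In the 2 kb downstream, 6 of 96 genes were covered in the parental line, which is 6.25% (interval 2.9 to 13.0%), against 3.84% of all protein-coding genes. R100 had 28 genes covered, or 29.2% (interval 21.0 to 38.9%), against 14.2% of all. R500 had 21 genes, or 21.9% (interval 14.8 to 31.1%), against 10.8%. For R1000 the count was 12, or 12.5% (interval 7.3 to 20.6%), against 5.14%, and for R4000 it was 10, or 10.4% (interval 5.76 to 18.1%), against 4.05%. The all-gene value lay inside the interval of the 96 genes in the parental line and below it in the 4 resistant lines. These genes are richer in GC than most. In R100 the shares of these and of all genes were 33.3% and 32.8% in the GC-richest of 5 groups. They were 37.5% and 19.9% in the next group and 31.6% and 12.6% in the middle one. The part of GC content in these shares was not tested. In the 2 kb upstream, no gene was covered in the parental line or R4000. R100 had 4 genes covered there, or 4.17% (interval 1.63 to 10.2%), R500 had 1, or 1.04% (interval 0.184 to 5.67%), and R1000 had 2, or 2.08% (interval 0.573 to 7.28%). For the lines with no gene covered, a limit of 3 counts was used in place of a Wilson interval, and 0 of 96 genes then allows a share of up to 3.12%. The all-gene shares upstream were 2.68%, 7.61%, 6.71%, 3.25% and 2.19%. The value for R500 lay above the interval of the 96 genes, and the other 4 lay inside it or under the limit for 0. No difference between lines was tested, because there was 1 list per line.

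Counted by any covered base, 10, 49, 37, 20 and 25 genes had a downstream peak, or 10.4%, 51.0%, 38.5%, 20.8% and 26.0%. The shares of all protein-coding genes were 6.17%, 23.9%, 17.8%, 9.75% and 8.47%. Upstream the counts were 3, 15, 8, 3 and 2 genes, or 3.12%, 15.6%, 8.33%, 3.12% and 2.08%. The all-gene shares there were 4.88%, 13.7%, 11.0%, 6.27% and 5.17%, so by this count R100 was near the background upstream. The 49 genes of R100 are 51.0% of the 96, and 27 genes (28.1%) had no covered base on either side in any of the 5 lines, against 65.1% of all protein-coding genes.

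**Figure D1:**
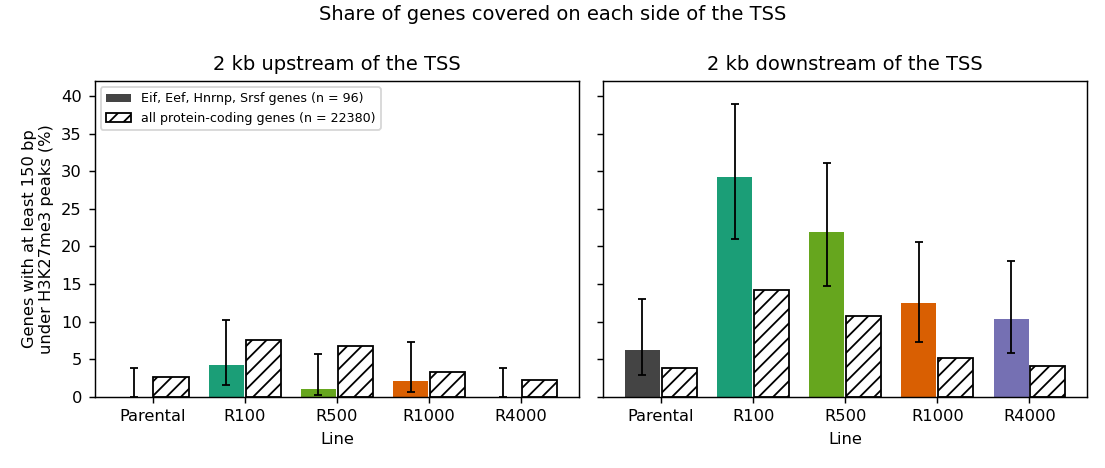
Bars give the percentage of genes with at least 150 bp under H3K27me3 peaks in the 2 kb upstream (left) and the 2 kb downstream (right) of the TSS in each line, as filled bars in the colour of the line for the 96 genes and as hatched bars for all 22380 protein-coding genes. Error bars are 95% Wilson intervals over genes, also for the lines with no gene covered upstream, where they reach 3.85%. The filled bar of R100 stands at 29.2% downstream and 4.17% upstream.

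The lists of R100 and R500 are longer than the others, and this touches every count. When only the 6820 widest peaks of every list were kept, 6, 21, 16, 12 and 10 genes were covered downstream. The all-gene shares were then 3.58%, 9.98%, 8.61%, 4.86% and 4.05%. The widest peaks of a longer list are wider by construction, so these counts do not remove the effect of list length.

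Of the genes covered on at least 1 side, those covered downstream alone were 6 of 6, 25 of 29, 20 of 21, 12 of 14 and 10 of 10. These are shares of 100.0%, 86.2%, 95.2%, 85.7% and 100.0%, against 46.7%, 54.0%, 47.6%, 51.0% and 57.6% over all protein-coding genes. Among genes covered downstream, no base of the upstream 2 kb was under a peak for 6 of 6, 22 of 28, 18 of 21, 12 of 12 and 10 of 10 genes, and over all protein-coding genes for 46.0%, 48.3%, 43.7%, 50.5% and 57.3%.

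Around the TSS, the bin of 50 bp under a peak in the most genes began 500 bp downstream in R100, where 17 genes had it covered (17.7%). In R500 it began at 550 bp with 15 genes (15.6%), in R1000 at 550 bp with 8 genes (8.33%), in R4000 at 250 bp with 9 genes (9.38%) and in the parental line at 350 bp with 3 genes (3.12%). Over all protein-coding genes the top bin began at 600, 250, 300, 350 and 300 bp, so that the 96 genes had it farther from the TSS in R100, R500 and R1000. It lay nearer in the parental line and R4000, but on few genes. In R4000 the bin at 600 bp had 8 genes, and in the parental line bins as far as 1750 bp had 2. None of the genes counted as covered had a peak over the TSS base itself. Among covered genes, the first base under a peak lay at a median of 292.5 bp from the TSS in R100, with a range from 56 to 1460 bp, and the medians of R500, R1000, R4000 and the parental line were 348.0, 464.0, 281.0 and 445.5 bp. The covered bases of all genes with a downstream peak were then assigned to exons and introns. Exons held 25.0%, 33.4%, 30.7%, 33.7% and 39.8% of them, and introns held the rest. Exons make up 28.7% of the 96 downstream windows.

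**Figure D2:**
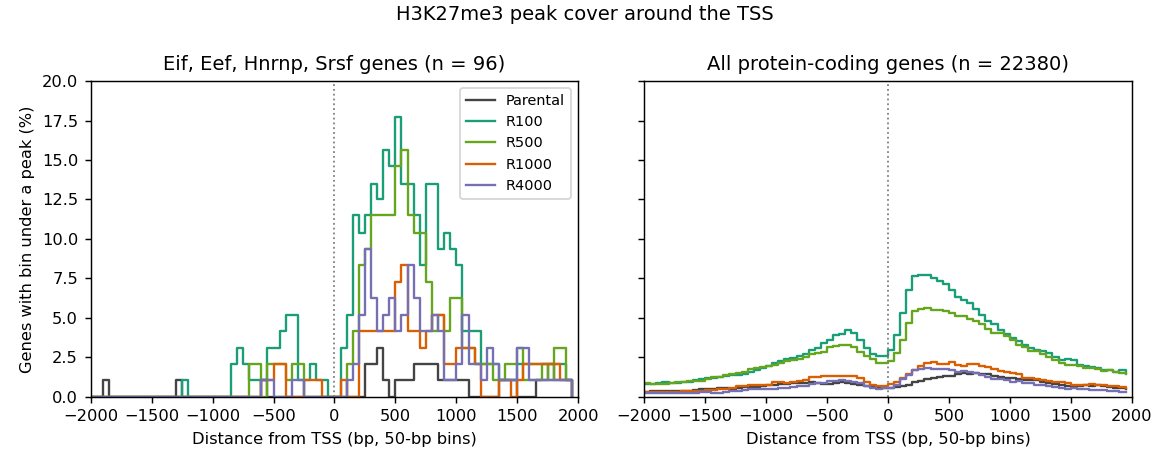
Lines give the percentage of genes whose bin of 50 bp is under a peak, by distance from the TSS in bp (negative is upstream), for the 96 genes (left) and all 22380 protein-coding genes (right), 1 colour per line. For the 96 genes the R100 profile reaches 17.7% at 500 bp downstream, and the upstream side stays near 0 beyond 1 kb from the TSS.

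The genes with the most covered bases encode an hnRNP and the eIF4A helicases, and 3 genes were covered downstream in all 5 lines, namely Hnrnpu, Eif4a1 and Eif4a2. This is 3.12% of the 96 genes, near the 2.16% of all protein-coding genes. Hnrnpu encodes a nuclear matrix protein that binds RNA and chromatin. Its peaks took up 300, 1050, 1000, 850 and 1100 bp, with no base upstream in any of the 5. R4000 held the highest of these values and the parental line the lowest. Eif4a2, which encodes an RNA helicase of the cap complex, was covered over 200, 850, 900, 700 and 750 bp. Its close relative Eif4a1, the major helicase of the complex, was covered over 300, 850, 500, 400 and 650 bp. Both helicase genes had no covered base upstream in any line, and both had more covered bases in R4000 than in R1000. Together the 3 genes held 800 of the 1600 downstream bp of the 96 genes in the parental line and 21.7%, 25.3%, 41.9% and 45.9% of them in the resistant lines.

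The bases under a peak in all 5 lists at once formed 6 regions in 4 genes, 750 bp in all, and those of at least 100 bp, which lie in the 3 genes above, are shown because every list marks them. A further 50 bp in an exon of Eif4a1, chr11:69484501-69484550, and 50 bp in an intron of Hnrnpa2b1, chr6:51419601-51419650, are not shown. In Eif4a1 on the minus strand, chr11:69485201-69485400 lies 525 to 724 bp from the TSS with 168 intronic and 32 exonic bp. In Eif4a2 on the plus strand, chr16:23108251-23108450 lies 734 to 933 bp from the TSS and is intronic. In Hnrnpu on the minus strand, chr1:180267551-180267650 lies in an exon 278 to 377 bp from the TSS, and chr1:180266051-180266200 lies at 1728 to 1877 bp with 59 exonic and 91 intronic bp. None of them overlaps an annotated UTR of its gene. The sequences are from NCBIM37 (mm9), on the strand of the gene and 5′ to 3′, with CpG dinucleotides in capitals.
Eif4a1: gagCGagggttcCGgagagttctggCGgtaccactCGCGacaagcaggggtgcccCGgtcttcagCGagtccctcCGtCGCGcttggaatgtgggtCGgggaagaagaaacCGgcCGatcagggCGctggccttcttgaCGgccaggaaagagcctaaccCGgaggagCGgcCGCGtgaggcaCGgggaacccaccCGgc
Eif4a2: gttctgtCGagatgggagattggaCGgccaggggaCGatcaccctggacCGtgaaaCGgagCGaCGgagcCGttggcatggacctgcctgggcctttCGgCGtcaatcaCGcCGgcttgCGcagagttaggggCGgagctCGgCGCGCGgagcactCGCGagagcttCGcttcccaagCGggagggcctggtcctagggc
Hnrnpu near: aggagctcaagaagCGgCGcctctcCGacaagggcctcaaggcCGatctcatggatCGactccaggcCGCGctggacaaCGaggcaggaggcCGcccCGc
Hnrnpu far: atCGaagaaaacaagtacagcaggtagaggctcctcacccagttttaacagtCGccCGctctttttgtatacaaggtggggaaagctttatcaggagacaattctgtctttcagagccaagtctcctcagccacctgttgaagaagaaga
The first region holds 21 CpG in 200 bp at 67.5% GC, the second 22 CpG in 200 bp at 67.0% GC and the third 10 CpG in 100 bp at 68.0% GC. The far region of Hnrnpu holds 3 CpG in 150 bp at 46.0% GC. The remaining regions were also poorer in GC than the first 3, with 1 CpG in 50 bp at 54.0% GC in Eif4a1 and 3 CpG in 50 bp in Hnrnpa2b1.

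**Figure D3:**
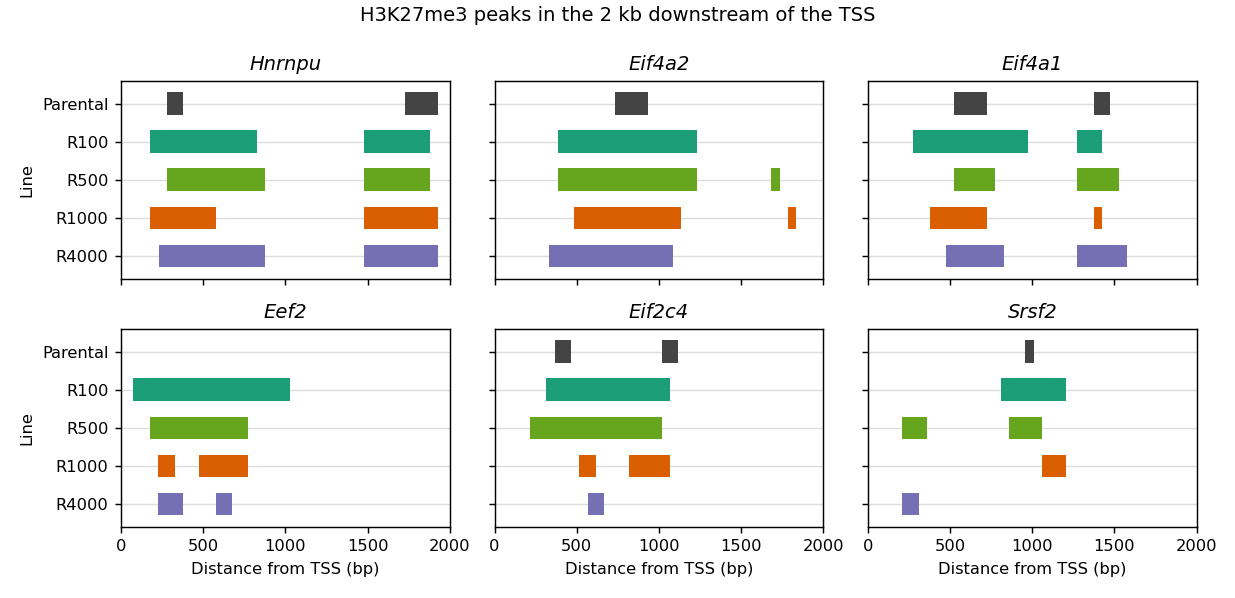
Bars are H3K27me3 peaks in the 2 kb downstream of the TSS of 6 genes, placed by distance from the TSS in bp, with 1 row per line. Hnrnpu, Eif4a2 and Eif4a1 have peaks at overlapping positions in all 5 lines, whereas Eef2 has none in the parental line and Srsf2 has its R4000 peak nearer the TSS than its R1000 peak.

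Among the other eIF4 factors, Eif4b and Eif4e3 were covered in resistant lines only. Eif4b, a cofactor of the helicases, was covered over 0, 250, 300, 200 and 200 bp, and no base was common to the 4 resistant lists. Eif4e3, a member of the cap-binding family, was covered over 0, 300, 400, 50 and 350 bp. Eif4g2, which encodes a scaffold related to eIF4G that does not bind eIF4E, was the one gene to reach 150 bp in both R1000 and R4000 and in neither R100 nor R500. Its values were 0, 50, 100, 150 and 150 bp, so these resistant lines differ by 1 or 2 bins. Eif4e, which encodes the cap-binding protein itself, and Eif4g1, which encodes the main scaffold, had no covered base on either side in any of the 5 lines. The start used for Eif4g1, the 5′ end of the gene, was poor in CpG. Its ratio of observed to expected CpG in the 1 kb downstream was 0.195, against a median of 0.821 for the 96 genes. Of the 12 genes of this group, 2, 4, 4, 4 and 5 were covered downstream, against 3.84%, 14.2%, 10.8%, 5.14% and 4.05% of all protein-coding genes.

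Factors of start site selection and tRNA delivery were covered mainly in R100, with 5 of 18 genes there, 1 in the parental line, 1 in R500 and none in R1000 or R4000. The all-gene shares were 3.84%, 14.2%, 10.8%, 5.14% and 4.05%, so the counts outside R100 were near or under the background. R100 also has the longest list. Eif1b, a relative of the start-codon factor eIF1, was covered over 150, 450, 500, 100 and 0 bp. Eif1 and Eif1ad each had 400 bp in R100 and at most 100 bp in each of the other 4 lines. None of the 5 Eif2b genes, whose products recharge eIF2 with GTP, reached 150 bp on either side in any line. Over all protein-coding genes, 83.4% were covered in no line downstream and 90.6% upstream, so this was near the background. Of the 13 genes for eIF3 subunits, 2 were covered in R100 (Eif3b and Eif3d), 2 others in R500 (Eif3a and Eif3l) and none in the remaining lines. These eIF3 counts were near the all-gene shares of 14.2% in R100 and 10.8% in R500. Both pairs had some covered bases in the other low-dose line, with Eif3a at 100 bp in R100 and 300 bp in R500, and Eif3d at 300 bp in R100 and 50 bp in R500. Eif5a, whose product helps ribosomes past stalling sequences, was covered over 150, 400, 300, 250 and 0 bp, starting between 1410 and 1660 bp from the TSS.

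Among the 7 genes grouped by symbol under elongation, Eef2 stood out. It encodes the factor that moves the ribosome along the mRNA, and it was covered over 0, 950, 600, 400 and 250 bp. Among the resistant lines its covered length was thus smaller at each higher dose. The same order held for the downstream covered length over all protein-coding genes, with 1840383, 1530929, 602272 and 442707 bp from R100 to R4000. Eef1b2 had 0, 250, 250, 100 and 50 bp downstream, Eef1g reached 400 bp in R500 and Eef1e1 300 bp in R100. Eef1a1, which encodes one of the most abundant proteins of the cell, had no covered base on either side in any of the 5 lines. The bases of Eef2 that lay under a peak in all 4 resistant lists, with no parental peak in the window, were chr10:80639601-80639700 and chr10:80639951-80640050, both intronic and on the plus strand, 225 to 324 and 575 to 674 bp from the TSS. They are shown because, besides Srsf1, Eef2 was the only one of the 96 genes with such bases. CpG dinucleotides are again in capitals.
Eef2 near: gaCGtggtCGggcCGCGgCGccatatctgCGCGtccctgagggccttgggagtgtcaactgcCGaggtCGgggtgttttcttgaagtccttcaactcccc
Eef2 far: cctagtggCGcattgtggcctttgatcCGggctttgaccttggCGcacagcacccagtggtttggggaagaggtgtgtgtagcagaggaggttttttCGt
The near region holds 9 CpG at 64.0% GC and the far region 4 CpG at 56.0% GC.

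Of the 10 entries for regulators of initiation and elongation, 2 were covered downstream in R100, 1 in R500 and none in the parental line, R1000 or R4000. The all-gene shares were 14.2% in R100 and 10.8% in R500, so these counts were near the background. Eif2ak3 encodes PERK, the kinase that phosphorylates eIF2 during stress of the endoplasmic reticulum, and it was covered over 0, 150, 150, 0 and 50 bp. The genes of the other eIF2 kinases, Eif2ak1, Eif2ak2 and Eif2ak4, had no covered base on either side in any line. Eef2k, which encodes the kinase that inhibits eEF2, was covered over 250 bp in R100 and 0 bp in the other 4 lines, and its second entry had no covered base. Of the genes for the eIF4E-binding proteins, Eif4ebp1 had 100 bp in R100 and 50 bp in R500, and Eif4ebp2 and Eif4ebp3 had none. Among the 4 Argonaute genes, Eif2c4 was the one covered, with values of 200, 750, 800, 350 and 100 bp, the last under the limit.

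Of the 18 hnRNP genes, 1, 6, 7, 3 and 4 were covered downstream, against 3.84%, 14.2%, 10.8%, 5.14% and 4.05% of all protein-coding genes. Hnrnpa1 and Hnrnpa2b1, which encode abundant regulators of splice site choice, were covered in all 4 resistant lines. Hnrnpa1 had 100, 400, 250, 150 and 200 bp, and Hnrnpa2b1 had 50, 350, 300, 150 and 350 bp, so that both had a parental peak under the limit. Hnrnpab was covered over 300 bp in R100 and 250 bp in R4000 and had no base in the other 3 lines. Hnrnpd, Hnrnph1 and Hnrnpul1 were covered in R500, over 150, 300 and 150 bp, and had no downstream base in any other line. Hnrnpk, whose product binds C-rich RNA, had 50 bp in R100 and none elsewhere. Hnrnpa1 and Hnrnpa2b1 share their promoter regions with the divergent genes Cbx5 and Cbx3, which encode HP1 proteins of heterochromatin, and their upstream windows held at most 50 bp of peaks in any line.

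Of the 11 SR genes, 4 were covered downstream in R100 (Srsf1, Srsf2, Srsf4 and Srsf10), 1 in R500, 2 in R1000 and none in the parental line or R4000. The all-gene shares were 14.2% in R100, 10.8% in R500, 5.14% in R1000, 3.84% in the parental line and 4.05% in R4000. Srsf2, whose product binds exonic splicing enhancers, was covered over 50, 400, 350, 150 and 100 bp, and all of these bases were exonic. Srsf1, which acts in constitutive and alternative splicing, had 0, 250, 50, 200 and 100 bp. Srsf10 was covered over 400 bp in R100 and had no base in the other 4 lines. Srsf3 had 100 bp in R100 and none elsewhere, which is below the limit of 150 bp. With any covered base in place of 150 bp, 9 of the 11 SR genes had a downstream peak in R100 and 4 in R500. By that count the all-gene shares were 23.9% and 17.8%.

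**Figure D4:**
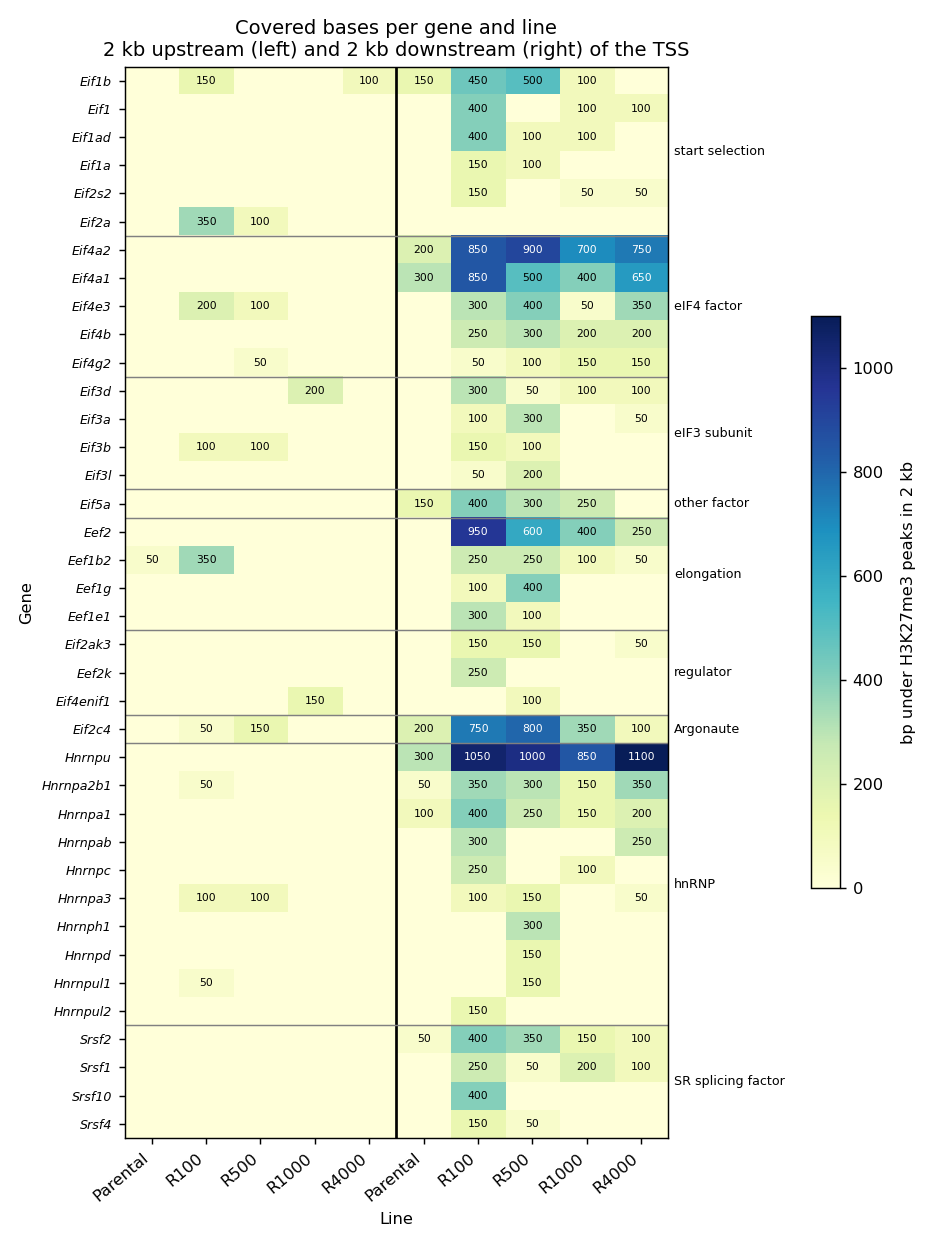
Each row is 1 of the 38 genes covered by at least 150 bp on at least 1 side in at least 1 line, grouped by role, and each cell gives the bp under H3K27me3 peaks in the 2 kb upstream (left 5 columns) or downstream (right 5 columns) of the TSS. Empty cells are 0, and the darkest row is Hnrnpu, with 850 to 1100 bp in the resistant lines.

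Upstream coverage of at least 150 bp occurred in 7 genes, each in a single line. Genes covered upstream in exactly 1 line were thus 7.29% of the 96, against 3.52% of all protein-coding genes, and 92.7% of the 96 were covered upstream in no line, against 90.6% of all. Eif2a, which encodes an alternative carrier of initiator tRNA, had 350 bp in R100 and 100 bp in R500, with no downstream base in any line, and the R100 peaks overlap the neighbouring gene Serp1. Eef1b2 had 350 bp in R100, over the divergent gene Ndufs1, and 50 bp in the parental line. Eif4e3 had 200 bp in R100, Eif1b had 150 bp in R100, Eif2c4 had 150 bp in R500, Eif3d had 200 bp in R1000 and Eif4enif1 had 150 bp in R1000, where the peaks overlap Drg1. Eif3b reached only 100 bp in R100 and R500. For 3 of these 7 genes the upstream peak therefore lay over another protein-coding gene.

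The lines differed in which of the 96 genes they covered. The 6 genes covered downstream in the parental line, Eif1b, Eif2c4, Eif4a1, Eif4a2, Eif5a and Hnrnpu, were covered in R100 and R500 as well, 5 of the 6 in R1000 and 3 of the 6 in R4000. Of all protein-coding genes covered in the parental line, 96.3%, 95.9%, 78.5% and 60.7% were covered in the resistant lines from the lowest dose to the highest, so these shares were near the background. R100 and R500 shared 14 genes, out of 28 in R100 and 21 in R500. The share is 66.7% of the R500 genes, against 82.7% over all protein-coding genes, and 62.7% of all genes covered in R100 were covered in R500. At the limit of 150 bp, R100 alone covered 12 genes and R500 alone covered 7. No gene was covered in R1000 alone, in R4000 alone or in the parental line alone. Of all protein-coding genes covered in R1000, 93.7% were covered in R100 as well, and of those covered in R4000, 92.6%. With the parental share of 96.3% given above, the absence of such genes was near the background. Only 3 of the 12 genes of R100 alone and 3 of the 7 of R500 alone had no downstream base in any other line. These last counts were not made over all genes. Genes covered in exactly 1 line were 19.8% of the 96 genes, against 7.02% of all protein-coding genes. Of the genes covered in at least 1 line they were 19 of 36, against 1570 of 3715 over all protein-coding genes. R100 covered 22 genes that the parental line did not, and of these 8 were covered in R500 (36.4%), 6 in R1000 (27.3%) and 6 in R4000 (27.3%). For all protein-coding genes, 2362 met the same condition and 50.1% were covered in R500, 17.5% in R1000 and 13.5% in R4000. Coverage in all 4 resistant lines without coverage in the parental line was found for Eef2, Eif4b, Hnrnpa1 and Hnrnpa2b1, which is 4.17% of the 96 genes, against 0.684% of all protein-coding genes. Hnrnpa1 and Hnrnpa2b1 did have 100 and 50 bp in the parental line.

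In summed length, the downstream peaks of the 96 genes covered 1600, 12650, 9500, 4650 and 5450 bp. The resistant lines had 7.91, 5.94, 2.91 and 3.41 times the parental length. Over all protein-coding genes the same ratios were 4.21, 3.50, 1.38 and 1.01. The 96 genes thus held 0.366%, 0.687%, 0.621%, 0.772% and 1.23% of all downstream covered bases. Without Hnrnpu, Eif4a2 and Eif4a1 the sums were 800, 9900, 7100, 2700 and 2950 bp. R4000 covered more bases than R1000 in 15 genes and fewer in 9, while over all protein-coding genes it covered more in 39.2% of the genes that differed. Compared with the parental line, R4000 covered more bases in 23 genes and fewer in 3, or more in 88.5% of the genes that differed, against 58.5% over all protein-coding genes.

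Sequence around the TSS set these genes apart from the average promoter, independently of the peaks. Within 1 kb downstream of the TSS, the median GC content was 60.1% for the 96 genes and 53.4% for all protein-coding genes. The median ratio of observed to expected CpG there was 0.821 against 0.501, and 80 of the 96 genes (83.3%) had a ratio above 0.6, against 39.6% of all. The upstream 1 kb was poorer in GC, with a median of 49.9% for the 96 genes and 48.0% for all protein-coding genes. The 36 genes covered downstream in at least 1 line had a median downstream GC content of 62.5%, and the 60 others 55.8%.

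Because coverage varied with GC content over all genes, shares were also set side by side within 5 equal groups of genes ranked by the GC content of the 2 kb centred on the TSS. In the richest group, 10 of 30 genes were covered downstream in R100 (33.3%), against 32.8% of all protein-coding genes in that group. In R500 it was 9 of 30 against 27.2%, in R1000 5 of 30 (16.7%) against 13.6%, and in R4000 5 of 30 (16.7%) against 11.2%. In this group the 96 genes differed from all genes by less than in the next 2 groups in R100. In the next group, 12 of 32 were covered in R100 (37.5%) against 19.9%, and in the middle group 6 of 19 (31.6%) against 12.6%. In the 2 poorest groups, 0 of 1 and 0 of 14 genes were covered in any line. All genes of these groups had shares of 0.782% and 5.18% in R100 and 0.827% and 3.42% in R500. With so few genes, counts of 0 were near the background. The part of GC content in the peak calls was not tested.

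**Figure D5:**
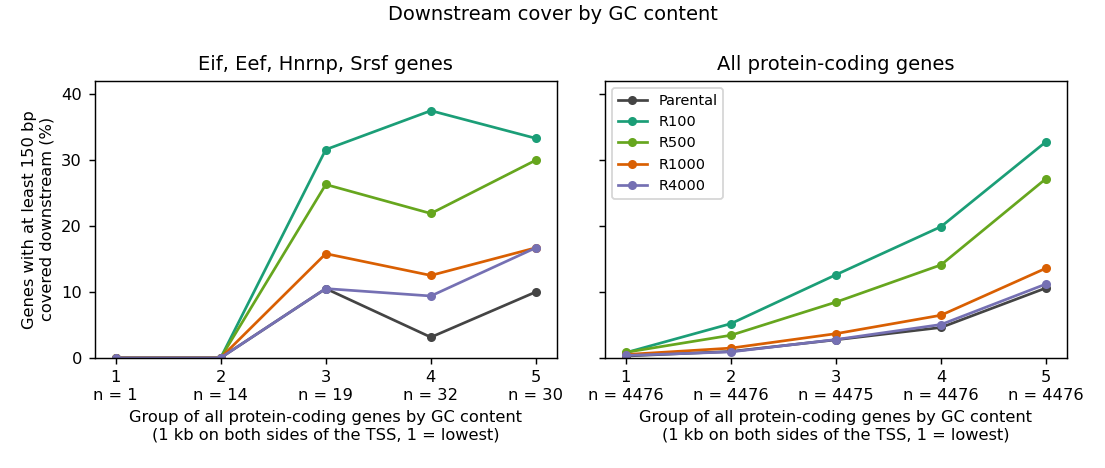
Points give the percentage of genes covered downstream of the TSS by 150 bp or more, for 5 equal groups of genes by GC content around the TSS, from group 1 (poorest) to group 5 (richest), in each line, for the 96 genes (left) and all protein-coding genes (right). Over all genes the R100 share goes from 0.782% in group 1 to 32.8% in group 5, and for the 96 genes it is 31.6%, 37.5% and 33.3% in groups 3, 4 and 5.

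Several of these genes have processed pseudogenes, so the downstream windows were searched for sequences of 50 bases, the read length, that occur once in mm9. The median share of such unique sequences was 100.0% in the genes covered downstream in at least 1 line and 100.0% in those that were not. The lowest share was 68.6%, in Eif1, which was covered in R100. Hnrnpa1 had 76.6% and was covered in 4 lines. Eif4g1 and Eef1a1, which had no covered base, had 77.9% and 86.3%. No downstream window was under 50% unique.

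A divergent protein-coding TSS lay in the 2 kb upstream of 16 of the 96 genes (16.7%), against 8.19% of all protein-coding genes. In R100, 6 of these 16 genes were covered downstream (37.5%) and 1 upstream, and of the 80 without such a neighbour 22 were covered downstream (27.5%) and 3 upstream. Over all protein-coding genes in R100, 12.6% of those with such a neighbour and 14.4% of those without were covered downstream, and 13.6% and 7.08% were covered upstream. Small RNA genes, such as the snoRNA Snord2 in Eif4a2 and SNORD51 in Eef1b2, lay in the downstream window of 4 genes (4.17%), against 0.737% of all protein-coding genes. Of the 4, 2 were covered in R100 and 3 in R500, against 33.9% and 32.7% of all genes with a small RNA gene there.

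Set beside related gene groups, the 96 genes lay between the cytosolic and the mitochondrial ribosomal protein genes in their downstream shares. Of 80 cytosolic ribosomal protein genes, 8, 57, 55, 36 and 41 were covered downstream, the R100 and R4000 counts being 71.2% and 51.2%. Of 76 mitochondrial ribosomal protein genes, 0, 13, 5, 0 and 1 were covered, with 17.1% in R100. Another 54 genes of translation and RNA binding outside the symbol rule, among them poly(A)-binding, termination, stress-response and splicing genes, had 2, 18, 16, 6 and 4 covered, which is 3.70%, 33.3%, 29.6%, 11.1% and 7.41%. In each of the 5 lines the downstream share of these 54 genes lay inside the interval of the 96 genes. Upstream, 2, 3, 4, 1 and 0 of the 80 cytosolic genes and 0, 5, 1, 2 and 1 of the 76 mitochondrial genes were covered. The 54 genes had 0, 1, 3, 1 and 1 covered there. Few genes covered upstream were thus not particular to the 96 genes. The differences between groups were not tested, since genes are not replicates.

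The lists hold a repressive mark and no expression, so the labelled cell type can be looked at only as presence of the mark. Among B-cell marker genes, Cd79b, which encodes a chain of the B-cell receptor complex, had 0, 1000, 150, 150 and 0 bp downstream. Ebf1, a transcription factor gene of the B lineage, had 0, 218, 100, 0 and 0 bp. Ptprc, which is not confined to the B lineage, had 150 bp in R4000 and none in the other 4 lines. Cd79a and Pax5 had no downstream base in any line. Of 5 marker genes of other blood cells (Cd3e, Cd4, Csf1r, Gata1 and Itgam), none had a covered base downstream in any line. Over all protein-coding genes 6.17%, 23.9%, 17.8%, 9.75% and 8.47% had one, so 0 of 5 genes cannot be told from the background. Upstream, Cd4 had 100 bp and Ebf1 50 bp in R100, and Pax5 had 50 bp in R1000 and in R4000.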

How the data were processed

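H3K27me3 ChIP-seq was analysed for 5 lines, and the 5 RRBS samples were not analysed here. Chromatin was precipitated with an antibody to H3K27me3, sequenced in 50-bp reads, and peaks were called against input with Poisson statistics in tiling windows. The authors deposited 1 list per line, whose 3 columns are positions in base pairs and hold neither counts nor scores. The submitters' processing notes name Bowtie and mm9. The methods give a p-value limit for calling enriched promoters, and the study describes biological replicates. Whether that limit was applied to the deposited lists, and whether they pool replicates, is not given in the sources used here. No peak end passed its chromosome's length in NCBIM37 (mm9). Every peak of R100 and R500 is listed 2 times and was used once. Depth is unknown, which limits every comparison between lines.

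The TSS was the 5′ end of each gene of the GENCODE vM1 annotation, the upstream window the 2000 bp before it and the downstream window the 2000 bp from it. Coverage was computed in Python 3.11.15 with numpy 2.4.6, pandas 2.3.3, scipy 1.17.1 and matplotlib 3.10.9 and was checked on simulated intervals by counting single bases. The alternatives were any covered base, at least 300 bp, peaks at least 200 bp wide, lists of equal number, any TSS of a protein-coding transcript, and the genes without Argonaute genes and regulators, the last chosen after seeing the data. No test between lines was made. GC and CpG were counted in 1000 bp on each side, and sequences of 50 bases were counted on both strands of the genome.

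Members and lists were chosen with earlier results of these data known. Genes were named by rule: the 12 with the most covered bases downstream and the 6 upstream, those covered in the parental line, those covered in R1000 and R4000 but not in R100 or R500, and a set fixed by symbol, among them the kinases and binding proteins. Roles were assigned from the symbol alone, so a group can hold genes whose products act elsewhere. The Argonaute group was split off after the symbols were seen. Any other gene named was chosen after its values were seen. The values of 1 marker gene are not reported here.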

Additional observations from a re-analysis of the deposited data

How the results depend on the processing

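Under each of the 6 alternatives, more genes were covered downstream than upstream in 5 of 5 lines, the 4 resistant lines had more genes covered downstream than the parental line, and R100 had the most. The counts themselves moved with the minimum. With any covered base, the downstream counts were 10, 49, 37, 20 and 25 in the parental, R100, R500, R1000 and R4000 lines (6, 28, 21, 12 and 10 at 150 bp), so that R4000 then stood above R1000, and the upstream counts were 3, 15, 8, 3 and 2 (0, 4, 1, 2 and 0 at 150 bp). With at least 300 bp, the downstream counts were 2, 17, 14, 5 and 5, and the upstream counts 2 in R100, 0 in R500 and 0 in R1000. With peaks at least 200 bp wide, they were 3, 21, 15, 7 and 6 downstream, and 0 in R500 and 1 in R1000 upstream. With lists of equal number, which keep wider peaks from the longer lists by construction, only the upstream counts moved by more than 1.5 times, to 2 in R100 and 0 in R500. With any transcript TSS, which 62 of the genes have in more than 1 place, the upstream counts were 7, 4, 5 and 4 in R100, R500, R1000 and R4000. Without Argonaute genes and regulators, the upstream counts were 0 in R500 and 1 in R1000. By construction, each alternative changes the bases required or the peaks, start sites or genes counted. No paired analysis was possible because each line has 1 list and no replicate number. Depth is unknown, so absence of a peak cannot be told from too few reads.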

Other observations

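Among the 54 genes outside the symbol rule, 3 chosen after their values were seen had wide downstream peaks. Pcbp1, which encodes a protein that binds C-rich RNA, had 350, 1050, 1150, 750 and 750 bp in the order parental, R100, R500, R1000, R4000. Ppp1r15b, whose product directs the phosphatase that reverses eIF2 phosphorylation, had 200, 1600, 1469, 600 and 800 bp in the same order. Atf4, the transcription factor translated when eIF2 is phosphorylated, had 50, 700, 400, 300 and 50 bp. Upstream, Ppp1r15b had 150 bp in R4000, Pcbp1 had 50 bp in R500, and Atf4 had no base in any line. By contrast Trib3, a target of Atf4, had no downstream base in any line and 100, 50, 250, 200 and 0 bp upstream.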
